A study of Mus musculus with 4 samples.

Results

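Natural killer (NK) cells were examined in single-cell RNA-seq libraries made from fine needle aspiration (FNA) biopsies of mouse liver. A barcode was kept when it held at least 500 unique molecular identifiers (UMIs, each standing for 1 captured RNA molecule), at least 300 genes and no more than 10% mitochondrial UMIs. A kept barcode was taken as an NK cell when it carried 2 or more UMIs of Ncr1, Klrb1c and Klre1 summed, no UMI of Cd3e or Cd3d and no UMI of Cd79a. The rule found 496 NK cells among 26825 kept barcodes, which is 1.85%. P-LC24 held 224 of them and P-HC24 held 83, both at week 24, while I-LC32 held 136 and I-HC32 held 53, both at week 32. Where 4 values follow each other they are given in this order.

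All mice were male C57BL/6J animals, 7 weeks old when feeding began, and all received the FPC diet, named for its Fructose, Palmitate, Cholesterol and Trans-Fat. Through the Progression phase of 24 weeks the diet held 0.05% cholesterol (P-LC24) or 1.25% cholesterol (P-HC24), and through the Intervention phase of 8 further weeks both cohorts ate 0.05% cholesterol (I-LC32, previously low, and I-HC32, previously high). Each library pooled 12 biopsies, 4 from each of 3 mice, and the same cohorts were sampled at week 24 and week 32. There was 1 library per condition and no mouse could be read apart, so no difference between conditions had a replicate check, no test between conditions was possible, and every interval given here is a 95% interval that covers counting error alone. Diet cannot be told apart from any other property of a single library.

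NK cells are innate lymphocytes that kill stressed or transformed cells without an antigen receptor, and the liver holds many of them beside a related resident population, the type 1 innate lymphoid cells (ILC1). An NK cell weighs signals from activating receptors, which detect stress ligands, against inhibitory receptors, which detect MHC class I on healthy cells. When activation prevails it releases perforin and granzymes and secretes interferon gamma and chemokines. Conventional NK cells rely on Eomes and circulate, while liver ILC1 carry Itga1 (CD49a), Cxcr6 and Tnfsf10 (TRAIL), and the 2 share Ncr1, Klrb1c and Tbx21. A rule built on Ncr1, Klrb1c and Klre1 therefore admits both.

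The 3 genes of the rule and the 2 further marker genes lie in 3 regions of the genome. Klrb1c (NK1.1; chr6:128755448-128766178, minus strand), Klre1 (chr6:129554868-129562791, plus strand) and Klra8 (Ly49H; chr6:130092152-130106938, minus strand) sit in the NK gene complex, Ncr1 (NKp46; chr7:4340710-4348171, plus strand) lies on chromosome 7 and Gzma (granzyme A; chr13:113230355-113237524, minus strand) on chromosome 13, all in GRCm39, the build of the files. The stretches of 250 bases before their RefSeq start sites, read on the strand of each gene from the GRCm38.p6 promoter table, are shown because these transcripts chose or mark the cells. Capitals mark TGTGGT or its reverse complement ACCACA, the core of the site that RUNX transcription factors bind.
Ncr1, chr7:4337465-4337714, plus strand: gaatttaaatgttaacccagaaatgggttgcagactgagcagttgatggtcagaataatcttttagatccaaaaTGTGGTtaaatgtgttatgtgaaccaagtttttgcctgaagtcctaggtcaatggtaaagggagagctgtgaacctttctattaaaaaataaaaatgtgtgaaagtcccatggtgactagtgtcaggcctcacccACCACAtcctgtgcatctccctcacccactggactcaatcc
Klrb1c, chr6:128788642-128788891, minus strand: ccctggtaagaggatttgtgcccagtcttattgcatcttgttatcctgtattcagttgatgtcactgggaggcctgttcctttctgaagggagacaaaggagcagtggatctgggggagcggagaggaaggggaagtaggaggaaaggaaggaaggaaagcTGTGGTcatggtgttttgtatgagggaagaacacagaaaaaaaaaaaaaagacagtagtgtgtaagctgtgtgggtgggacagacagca
Klre1, chr6:129577963-129578212, plus strand: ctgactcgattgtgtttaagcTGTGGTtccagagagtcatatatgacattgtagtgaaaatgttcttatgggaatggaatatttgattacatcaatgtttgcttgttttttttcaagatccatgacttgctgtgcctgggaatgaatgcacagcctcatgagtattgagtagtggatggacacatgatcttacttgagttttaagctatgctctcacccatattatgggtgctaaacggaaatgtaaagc
Gzma, chr13:113100982-113101231, minus strand: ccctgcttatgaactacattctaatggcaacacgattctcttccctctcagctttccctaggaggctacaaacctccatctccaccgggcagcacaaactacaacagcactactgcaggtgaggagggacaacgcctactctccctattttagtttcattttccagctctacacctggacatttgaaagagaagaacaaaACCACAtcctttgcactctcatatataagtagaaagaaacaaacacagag
Klra8, chr6:130129899-130130148, minus strand: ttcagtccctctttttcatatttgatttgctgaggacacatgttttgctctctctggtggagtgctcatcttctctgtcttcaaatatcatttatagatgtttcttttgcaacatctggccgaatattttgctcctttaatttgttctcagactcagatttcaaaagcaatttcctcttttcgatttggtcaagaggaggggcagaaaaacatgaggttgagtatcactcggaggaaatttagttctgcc
These letters stood in 4 of the 5 stretches, with 2 copies before Ncr1, 1 each before Klrb1c, Klre1 and Gzma, and none before Klra8. Among 27025 genes with a promoter in the table, 14.2% held them. The ETS word AGGAAGT and the T-box word AGGTGTGA, read on both strands, were in none of the 5 stretches, and in 7.80% and 1.14% of all promoters. Both are longer than TGTGGT, and shorter forms of these sites were not counted, so the stretches may hold those. The motifs were chosen after counts of several motifs had been seen, and a match describes letters, not a bound site.

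NK cells made up a smaller share of the high cholesterol library than of the low cholesterol library at both weeks. They were 4.36% (95% exact interval, 3.81 to 4.95) of kept barcodes in P-LC24 against 1.2% (0.957 to 1.49) for P-HC24 at week 24, then 1.83% (1.54 to 2.17) in I-LC32 against 0.721% (0.541 to 0.942) for I-HC32 at week 32. The 4 intervals did not overlap. High minus low cholesterol was -3.16 percentage points (-3.80 to -2.54) in Prog, the comparison at week 24, and -1.11 (-1.49 to -0.745) in Int, the comparison at week 32. Both cohorts also had a lower share at week 32 than at week 24, although the low cholesterol cohort had not changed its diet.

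B cells, most of the kept barcodes, ran from 61.9% to 66.1% across the libraries, so T cells were used as a second yardstick. T cells were defined by 2 or more UMIs of Cd3e and Cd3d with no UMI of the NK genes or Cd79a, and numbered 824, 848, 1210 and 840. T cells were 16.0%, 12.3%, 16.3% and 11.4% of kept barcodes, so they too were a smaller share of the high cholesterol library at both weeks. Barcodes with 2 or more UMIs of the NK genes, with Cd3e or Cd3d and without Cd79a, were 2.08%, 1.37%, 2.14% and 0.721%. A lower share with high cholesterol was therefore not particular to NK cells. There were 27.2, 9.79, 11.2 and 6.31 NK cells per 100 T cells. The order of the libraries was the same as for the share of all barcodes, but P-HC24 and I-LC32 had overlapping intervals on this scale, where of NK and T cells together NK cells were 8.92% (7.16 to 10.9) in the former and 10.1% (8.55 to 11.8) in the latter.

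**Figure D1:**
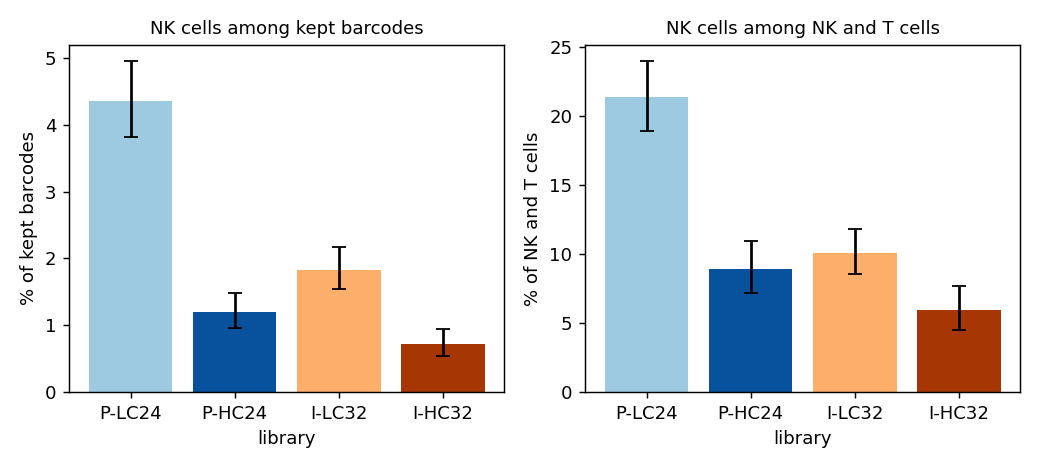
NK cells as a percentage of kept barcodes (left) and of NK and T cells together (right) in the 4 libraries. Bars are the shares and error bars 95% exact binomial intervals, and the high cholesterol library is the lower one at each week, 1.2% against 4.36% and 0.721% against 1.83%.

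Few barcodes lay near the threshold of the rule. Of the 496 cells, 7 had exactly 2 marker UMIs, 4 had 3 and 485 had 4 or more, with a median of 17 in P-LC24 and 13 in each of the other libraries. Just outside it, 31 kept barcodes had 1 marker UMI without Cd3e, Cd3d or Cd79a. A further 414 barcodes carried the NK genes together with Cd3e or Cd3d, as NKT cells and some activated T cells do, and 185 carried them together with Cd79a. These were not counted.

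The cells were sampled to a like depth. The median per cell was 6213.5, 4861, 5737 and 5328 UMIs, and 2434, 2041, 2333.5 and 2245 genes. Mitochondrial UMIs had medians between 2.54% and 3.24%. Barcode sequences shared by a pair of libraries numbered 17 to 41. Expression was read from UMIs summed over the NK cells of a library, 1504785, 436244, 825810 and 311289 in all, and scaled to UMIs per 1000000 (CPM).

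NK cell genes that the rule had not used were detected in most of the cells or in the fractions that follow. Nkg7, a granule protein of killer lymphocytes, had a UMI in 97.8% to 99.1% of cells of each library, and Klrk1 (NKG2D) in 94.0% or more. Gzma was detected in 86.2%, 94.0%, 80.9% and 60.4% of NK cells, the lowest being I-HC32. Klra8 was detected in 52.7%, 56.6%, 40.4% and 49.1%. Eomes was found in 57.6%, 53.0%, 48.5% and 39.6%, and Tbx21 (T-bet) in 60.2% to 66.5%. Among genes with 200 or more UMIs that T cells of every library also carried, 56 had a CPM at least 8-fold above that of T cells in all 4 libraries, and these took in the receptor genes Klra9, Klri2 and Klrb1f, the transcription factor genes Irf8 and Hhex, the kinase gene Styk1, the adaptor gene Clnk and Angpt1, a vascular ligand.

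Markers of other cell types were mostly low. Neither Il23r nor Il22, markers of ILC3, had a UMI in any library, and the 3 ILC2 genes had 0 to 3 UMIs in all. Of the T cell markers, Trbc1 was found in 76.5% to 84.9% of NK cells, whereas Trac was in 3.12% to 9.64% of them. The constant region of the beta chain is transcribed in NK cells without a rearranged receptor, so it does not separate the lineages. The 5 B cell markers summed to 118, 188, 130 and 289 CPM.

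Macrophage and red cell RNA differed between the libraries. The 5 macrophage markers Lyz2, Csf1r, C1qa, C1qb and Adgre1 summed to 48.5, 1912, 72.7 and 270 CPM, higher in both high cholesterol libraries. A single barcode of P-HC24 held 789 of these UMIs, and with it 98.0% of the Slpi UMIs, 94.6% of those of Lyz2 and 87.8% of those of Fn1 in the NK cells of the library. Yet Lyz2 was also spread thinly, with a UMI in 9.82%, 38.6%, 9.56% and 75.5% of NK cells, and the same pattern was seen in T cells (8.62%, 47.8%, 9.84% and 71.8%) and B cells (8.08%, 49.8%, 11.2% and 72.1%). The share of free RNA in a cell, estimated from the immunoglobulin UMIs of NK cells relative to those of all kept barcodes, was 1.83%, 2.42%, 1.64% and 3.08%. Hba-a1, Hbb-bs and Alas2 summed to 8714, 626, 13520 and 119 CPM. In I-LC32 the highest barcode held 58.5% of the Hbb-bs UMIs, and for Hba-a1 it was 59.3%. In P-LC24 these were 27.3% and 29.8%. Haemoglobin genes reached 82.2% of the UMIs of an NK cell in I-LC32. Slpi, Fn1 and Lyz2 are accordingly given below as measured, with no reading as NK cell genes.

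Cells that passed a threshold of ILC1 genes were present in every library, those of P-HC24 mainly through Il7r. NK cells with 2 or more UMIs of Itga1, Cd200r1, Cxcr6, Tnfsf10 and Il7r summed numbered 49 of 224, 9 of 83, 28 of 136 and 17 of 53. These were 21.9% (16.6 to 27.9), 10.8% (5.08 to 19.6), 20.6% (14.1 to 28.4) and 32.1% (19.9 to 46.3) of NK cells. High minus low cholesterol was -11.0 percentage points (-19.3 to -0.841) in Prog and 11.5 (-2.94 to 27.1) in Int, so the interval at week 32 took in 0. The interval in Prog took in 0 as well with a mitochondrial limit of 20% (-10.1, -18.5 to 0.146), with the highest Scrublet doublet scores removed (-9.49, -17.9 to 0.758), from 1 marker UMI on (-8.67, -17.2 to 1.62) and with further T and B cell genes excluded (-15.4, -34.9 to 17.4). After each cell was thinned to 2000 UMIs the shares were 13.8%, 2.47%, 12% and 18%. As a background, 0.573% to 1.07% of B cells met the same threshold. It was met by 81.2% to 89.4% of T cells, most of which carry Il7r. Without Il7r the shares of NK cells became 15.6%, 1.2%, 12.5% and 17%. The 9 cells of P-HC24 held 41 UMIs of Il7r, 3 of Cd200r1, 1 of Tnfsf10 and 0 of Itga1 and Cxcr6. Cxcr6, the chemokine receptor that holds ILC1 in the liver sinusoids, had 52, 0, 56 and 30 UMIs. The count of 0 in P-HC24 allows up to 6.88 CPM, against which P-LC24 was at least 5.02-fold higher.

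The cells inside this threshold differed from the other NK cells in genes it had not used. Itgam (CD11b), Zeb2 and Irf8, which mark maturing conventional NK cells, were lower in them in all 4 libraries. Klra8 had 74.2, 169, 151 and 354 CPM inside, and 1142, 1041, 716 and 684 CPM outside. Gzma had 2213, 2901, 1912 and 8.24 CPM inside, the last being 1 UMI, and 8924, 9125, 7438 and 7818 CPM outside. Eomes was detected in 32.7%, 33.3%, 25.0% and 29.4% of the cells inside and in 64.6%, 55.4%, 54.6% and 44.4% of those outside. Of the 3 genes that chose all these cells, Klrb1c and Klre1 were lower inside in every library, with log2 ratios of inside over outside of -0.56 (-0.71 to -0.42) and -0.52 (-0.65 to -0.39) over the libraries pooled, and Ncr1 had -0.19 (-0.34 to -0.05).

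The genes that were higher inside the threshold in all 4 libraries took in Inpp4b, a phosphoinositide phosphatase gene, Tox, a transcription factor gene of innate lymphoid development, Rora, Ltb, Cd7, Emb, St6galnac3 and Dscam. For Tox this was by little in P-HC24, with 191 CPM inside and 182 outside. Xcl1, Cd160 and Cd226 were higher inside in every library but P-HC24, where Xcl1 had 191 CPM inside and 401 outside. Ly6c2 was higher inside in P-HC24 alone, with 1440 CPM inside and 535 outside. Inpp4b had 971, 212, 832 and 2258 CPM inside, and 27.6, 12.8, 27.4 and 47.4 CPM outside. The 7 T cell markers other than Trbc1 and Trbc2 summed to 50.2, 84.7, 165 and 16.5 CPM inside and 56.1, 64.3, 45.1 and 15.8 CPM outside, where T cells had 1279 to 1616. In I-LC32, 24 of the 34 such UMIs inside were of Cd3g. Inpp4b itself stood at 860 to 1502 CPM in T cells, and Dscam at 1.74 to 3.90 CPM.

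**Figure D2:**
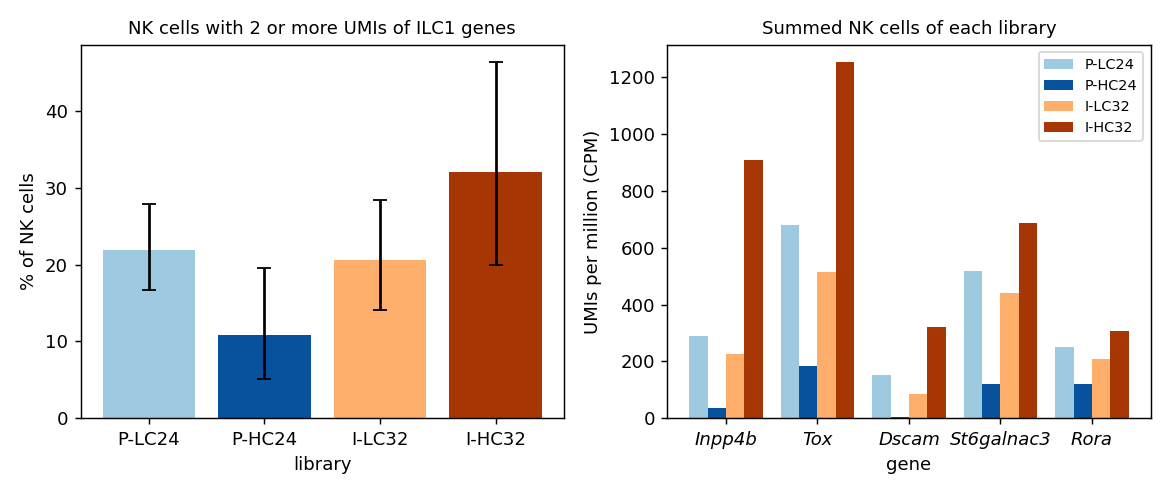
Left, percentage of NK cells with 2 or more UMIs of Itga1, Cd200r1, Cxcr6, Tnfsf10 and Il7r summed, with 95% exact binomial intervals. Right, CPM of 5 genes in the summed NK cells of each library, in which P-HC24 is the lowest and I-HC32 the highest for all 5.

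Inpp4b, Tox and Dscam ordered the libraries as the share of cells with ILC1 genes did. Inpp4b had 436, 15, 188 and 283 UMIs, or 290, 34.4, 228 and 909 CPM, and 6 of the 15 UMIs in P-HC24 were in 1 cell. The log2 ratio of high over low cholesterol was -3.07 (-3.92 to -2.34) in Prog and 2.00 (1.73 to 2.27) in Int. Tox had 681, 183, 515 and 1253 CPM, with log2 ratios of -1.89 (-2.24 to -1.56) and 1.28 (1.08 to 1.49). Dscam, a cell adhesion gene, had 151, 4.58, 86.0 and 321 CPM, with log2 ratios of -5.04 (-8.09 to -3.17) and 1.90 (1.45 to 2.36), and 31.0% of its UMIs in I-HC32 came from 1 cell. In the cells outside the threshold the log2 ratios of Tox were -1.28 (-1.66 to -0.92) in Prog and 0.85 (0.51 to 1.18) in Int, and those of Inpp4b -1.10 (-2.83 to 0.28) and 0.79 (-0.56 to 2.04). Dscam had 21.2, 0, 54.8 and 300 CPM outside the threshold and 488, 42.4, 180 and 354 CPM inside it. Its ratio in Int was 2.45 (1.82 to 3.11) outside and 0.98 (0.31 to 1.65) inside.

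For the comparison of expression, a gene was used when it had a UMI in at least 10% of the NK cells of either library and 100 UMIs over both. It was counted as higher or lower when the CPM differed at least 1.5-fold, which is a description and not a test. In Prog, 3468 genes were compared, of which P-HC24 was above P-LC24 in 158 (4.56%) and below it in 541 (15.6%), so 20.2% passed in either direction. The median log2 ratio of all compared genes was -0.13 in Prog, and relative to it 324 genes were above 1.5-fold and 374 below. In Int, 2156 genes were compared, of which I-HC32 was above I-LC32 in 123 (5.71%) and below it in 87 (4.04%), or 9.74% in all, around a median of 0.01.

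Activating receptors showed small differences. None of 12 compared members was higher in P-HC24 and 3 were lower, where 15.6% of all compared genes were lower. The median log2 ratio was -0.19. In Int none of 12 passed 1.5-fold, beside 9.74% of all compared genes, and the median was 0.20. Klrk1 had 859, 837, 1007 and 1201 CPM, with log2 ratios of -0.04 (-0.21 to 0.13) in Prog and 0.25 (0.07 to 0.43) in Int. Cd226 (DNAM-1), which binds nectin family ligands, had 239, 135, 248 and 273 CPM and log2 ratios of -0.82 (-1.25 to -0.42) and 0.14 (-0.25 to 0.51). In the cells without ILC1 genes its ratio in Prog was -0.17 (-0.64 to 0.28), and in those with them -2.10 (-3.74 to -0.85). The other 2 lower members in Prog were Cd244a (2B4), at -0.73 (-1.18 to -0.30), and Slamf7, at -0.74 (-1.30 to -0.22). The median of all compared genes, -0.13, lies on the same side of 0 as these 3 ratios.

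Among inhibitory receptors 2 of 11 compared genes were lower in Prog, where 15.6% of all compared genes were lower. In Int 1 of 9 was higher, beside 5.71% of all compared genes. Klrc1 (NKG2A), which pairs with Klrd1 (CD94) to read Qa-1, had 324, 273, 251 and 386 CPM and log2 ratios of -0.25 (-0.55 to 0.05) and 0.62 (0.28 to 0.95). Klrd1 itself had 942, 1123, 877 and 951 CPM, and log2 ratios of 0.25 (0.10 to 0.40) and 0.12 (-0.08 to 0.31). Tigit, a checkpoint receptor, had 72, 7, 32 and 22 UMIs, too few for the comparison in either week.

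The Ly49 receptors, encoded by the Klra genes, are expressed by subsets of NK cells and mostly recognise MHC class I. They are near-identical copies, so that reads could be split between them and the level of any 1 member is uncertain. Klra4 had a UMI in 44.2%, 53.0%, 37.5% and 34.0% of NK cells, and the binomial intervals of neighbouring libraries overlapped. Klra7 (Ly49G) was lower in P-HC24, with 385 and 222 CPM and a log2 ratio of -0.79 (-1.12 to -0.48), and was at 342 and 280 CPM at week 32. Klra1 (Ly49A) was found in 13.0%, 14.5%, 14% and 1.89% of cells, the last being 1 cell of 53. Cells without a UMI of any of 6 Ly49 genes were 14.3%, 9.64%, 21.3% and 32.1% of NK cells, and 17.1%, 18.5%, 24.1% and 34.0% after thinning to 2000 UMIs.

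**Figure D3:**
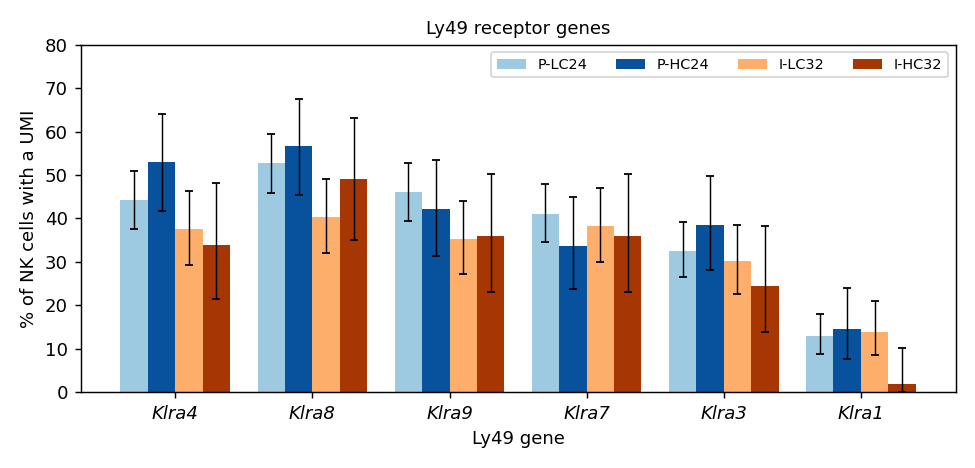
Percentage of NK cells with a UMI of 6 Ly49 genes in each library, with 95% exact binomial intervals. Within each gene the intervals are wide, and Klra1 in I-HC32 is the lowest value, at 1.89%.

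The 2 main adaptors that couple these receptors to kinases were higher in P-HC24, by less than 1.5-fold. Tyrobp (DAP12) had 2140, 3108, 2056 and 1969 CPM, with log2 ratios of 0.54 (0.45 to 0.63) in Prog and -0.06 (-0.20 to 0.07) in Int. Fcer1g had 1841, 2382, 1838 and 1757 CPM and ratios of 0.37 (0.27 to 0.47) and -0.06 (-0.21 to 0.08). Both are also expressed by macrophages. Of 15 compared adaptor and signalling genes 1 was higher and 5 lower in P-HC24, the latter including the kinase gene Prkcq (-0.79, -1.10 to -0.49). Of all genes compared in Prog 4.56% were higher and 15.6% lower. None of 12 passed in Int, beside 9.74% of all compared genes.

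Most cytotoxic genes were within 1.5-fold at both weeks. Perforin (Prf1) had 645, 731, 501 and 556 CPM. Gzma had 7059, 8452, 6063 and 4774 CPM, with log2 ratios of 0.26 (0.20 to 0.31) in Prog and -0.35 (-0.43 to -0.26) in Int. In the cells without ILC1 genes the ratios of Gzma were 0.03 (-0.02 to 0.09) and 0.07 (-0.01 to 0.16), both with intervals that took in 0. Nkg7 had 2130, 3212, 2360 and 2310 CPM and ratios of 0.59 (0.50 to 0.68) and -0.03 (-0.16 to 0.09). Of 14 compared genes of the list, Nkg7 and Lamp1 were above 1.5-fold in Prog and Rab27a, which docks granules, was below. None of 13 passed in Int. Of all compared genes 20.2% passed in Prog and 9.74% in Int. Gzmb, Fasl and Serpinb9, which protects the killer from its own granzyme B, were within 1.5-fold in both.

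Interferon gamma was lower in the high cholesterol library at both weeks. Ifng had 223, 21, 79 and 8 UMIs, or 148, 48.1, 95.7 and 25.7 CPM. The log2 ratios were -1.62 (-2.34 to -0.98) in Prog and -1.90 (-3.16 to -0.85) in Int, the latter on 87 UMIs, fewer than the comparison requires. It was found in 35.3%, 21.7%, 34.6% and 13.2% of NK cells. The difference was also seen in the cells without ILC1 genes, at -1.61 (-2.40 to -0.90) in Prog and -2.91 (-5.99 to -0.98) in Int. In these cells the ratio in Int rested on 2 UMIs in I-HC32 and 49 in I-LC32, again fewer than the comparison requires.

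The chemokines differed among themselves. Ccl3 had 218, 174, 183 and 41.8 CPM, with log2 ratios of -0.32 (-0.70 to 0.04) in Prog and -2.13 (-3.07 to -1.31) in Int, where I-HC32 had 13 UMIs. With NK cells taken from 1 marker UMI on, the ratio of Ccl3 in Int was -1.12. Ccl4 had 679, 983, 639 and 347 CPM and ratios of 0.53 (0.37 to 0.70) and -0.88 (-1.19 to -0.58). Ccl5, held ready in resting NK cells, had ratios of 0.52 (0.48 to 0.56) and 0.01 (-0.05 to 0.06). Xcl1, which draws in cross-presenting dendritic cells, had 647, 378, 477 and 472 CPM and a log2 ratio of -0.78 (-1.02 to -0.54) in Prog. In the cells without ILC1 genes the ratio of Xcl1 in Prog was 0.48 (0.20 to 0.76), the opposite direction. There the ratios of Ccl4 were 0.82 (0.63 to 1.00) in Prog and -0.24 (-0.62 to 0.12) in Int, and those of Ccl3 were 0.03 (-0.37 to 0.42) and -1.51 (-2.62 to -0.57).

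Most cytokine receptors were within 1.5-fold. Il2rb, the shared receptor chain for IL-15 on which NK cells depend, had 880, 791, 725 and 771 CPM and was within 1.5-fold in both comparisons. Il7r had 135, 94.0, 139 and 273 CPM, with a log2 ratio of 0.97 (0.55 to 1.39) in Int, and Il10rb had a ratio of 0.87 (0.37 to 1.37). Of the list, 2 of 13 compared genes were lower in Prog and 2 of 11 higher in Int, beside 15.6% and 5.71% of all compared genes.

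Of trafficking genes, 3 of 14 compared were lower and none higher in Prog, where 15.6% of all compared genes were lower, and 3 of 13 were lower and 1 higher in Int, where 4.04% of all were lower. Itga2 (CD49b), a surface marker of conventional NK cells, had 582, 392, 375 and 222 CPM and log2 ratios of -0.57 (-0.81 to -0.33) and -0.76 (-1.16 to -0.38). Itgam had 180, 147, 164 and 73.9 CPM and ratios of -0.30 (-0.71 to 0.10) and -1.15 (-1.85 to -0.50). Ccr2, which binds the monocyte chemoattractant Ccl2, had ratios of -0.64 (-1.03 to -0.27) and -0.50 (-0.98 to -0.04).

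Lineage transcription factors were at a like level in the libraries. Eomes had 203, 186, 179 and 138 CPM, and Tbx21 had 241, 245, 248 and 206 CPM, and the intervals of their log2 ratios took in 0 in both comparisons. Of the transcription factor list 4 of 17 compared genes were lower in Prog, beside 15.6% of all compared genes. These were Tox, Rora, Ikzf3 and Ikzf2, with Rora at -1.04 (-1.48 to -0.62) and Ikzf3 (Aiolos) at -0.96 (-1.29 to -0.65). In the cells without ILC1 genes the ratio of Rora in Prog was -0.40 (-0.95 to 0.12). In Int, Tox was the single one of 16 past 1.5-fold, beside 9.74% of all compared genes. Genes of immature NK cells had medians of -0.48 in Prog and 0.55 in Int over 7 compared genes. Of these 2 were lower in Prog and 2 higher in Int, beside 15.6% and 5.71% of all compared genes. Emb, a member, had 1056, 642, 1062 and 1918 CPM. Those of conventional NK cells had medians of -0.13 over 8 genes and -0.38 over 7, and all 7 were below 0 in Int. Without the cells with ILC1 genes, over the genes that could still be compared, the medians of the conventional NK genes were -0.42 in Prog and -0.15 in Int, and that of the immature NK genes in Prog was 0.13, the opposite direction.

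By rule, 10 genes were taken at either end of each comparison. In Prog the highest included Slpi, Fn1, Lyz2, Cebpb, Phb2, Ftl1, Vim, Pgam1 and Ddost. Slpi, Fn1 and Lyz2 rested mainly on the barcode of P-HC24 described above. The highest barcode of P-HC24 held 28.6% of its Ftl1 UMIs, and the highest for Cebpb held 26.5%. In P-LC24 the highest barcodes held 2.31% and 3.91%. Vim (vimentin) had 371, 784, 634 and 877 CPM and a log2 ratio of 1.08 (0.88 to 1.28), which was 0.93 without barcodes of macrophage or haemoglobin RNA. The lowest included Dscam, Inpp4b, Gm36723, Rnf19a, St6galnac3, Marchf3, Tox and Gm36975. Rnf19a, a ubiquitin ligase gene, had 103 UMIs with low and 5 with high cholesterol at week 24, a log2 ratio of -2.58.

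In Int the highest were Inpp4b, Dscam, Raet1e, Abcb1b, Tox, Pkp4, P2ry10, Antxr2, Odc1 and Abhd17b. Raet1e, which encodes a ligand of the receptor Klrk1, had 87.7, 77.9, 63.0 and 170 CPM and a log2 ratio of 1.44 (0.86 to 2.02). Odc1, the first enzyme of polyamine synthesis, had a ratio of 1.15 (0.55 to 1.74), and 30.4% of its UMIs in I-HC32 were from 1 cell. The lowest were Ccl3, S100a4, Gpx1, Ppp1r14b, Itgam, St3gal6, Rras2, Lef1, Zfp706 and Rbm3. S100a4, a calcium-binding protein gene, had 191, 268, 357 and 109 CPM and a ratio of -1.71 (-2.27 to -1.19), which was -0.22 with NK cells taken from 1 marker UMI on. Under that rule the ratio of Gpx1, a glutathione peroxidase gene, turned from -1.61 to 0.14. Rbm3, a cold-inducible RNA-binding protein gene, had 220, 390, 515 and 270 CPM and a ratio of -0.93 (-1.29 to -0.59).

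Of the 2154 genes compared at both weeks, 94 were higher and 310 lower in Prog, and 123 were higher and 86 lower in Int. Of the 2154, 33 were lower in Prog and higher in Int, and 7 were higher in Prog and lower in Int. A further 4 were higher in both and 18 lower in both. Whether these overlaps differ from what the counts of each week alone would give was not tested. The 33 held Inpp4b, Dscam, Tox, St6galnac3, Cdk6, Itgav, Emb and Bcl2, an inhibitor of cell death with 967, 619, 770 and 1283 CPM. The 7 held Rbm3, S100a6, Lsm4, Prdx5, Sgk1, Ifi27 and Tomm6. The P-HC24 library had a smaller fraction of cells with ILC1 genes than P-LC24, and I-HC32 a larger fraction than I-LC32, and the part of this in the 33 genes was not tested.

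**Figure D4:**
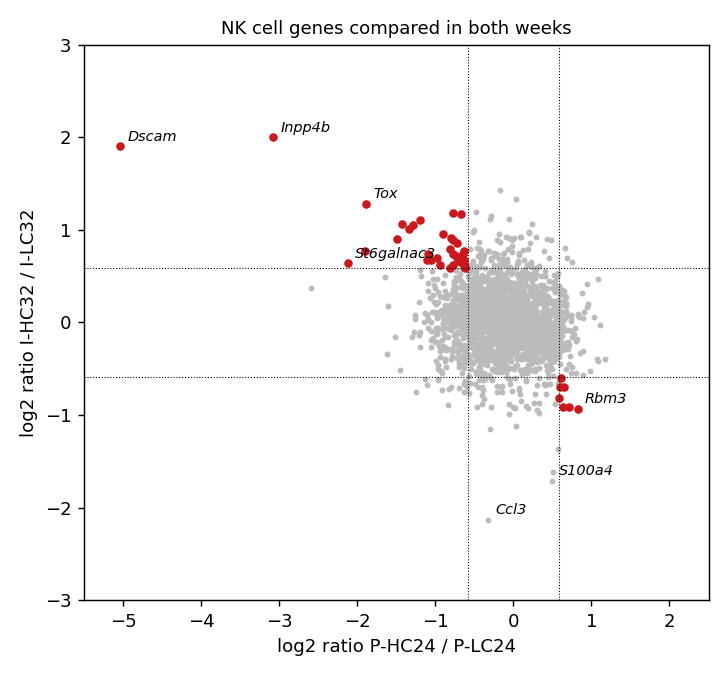
Log2 ratio of high over low cholesterol at week 24 (horizontal) and at week 32 (vertical) for genes compared in both, with dotted lines at 1.5-fold. The 40 genes past 1.5-fold in opposite directions are red, 4 haemoglobin genes and Lyz2 lie beyond the axes, and Dscam and Inpp4b stand farthest to the upper left.

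Oxidative phosphorylation genes, which encode the respiratory chain and ATP synthase, were mostly higher in Prog. Of 68 compared genes 66 had a ratio above 0 and 11 were at least 1.5-fold higher, beside 4.56% of all compared genes, with a median log2 ratio of 0.41. Ndufb10, a subunit of complex I, had 104, 202, 118 and 135 CPM and a ratio of 0.96 (0.57 to 1.35) in Prog, and Cox4i1, of complex IV, had 527, 814, 647 and 585 CPM and 0.63 (0.44 to 0.81). In Int, 57 genes had a median of -0.15, none was higher and 3 were lower, beside 5.71% and 4.04% of all compared genes. Ribosomal protein genes had medians of 0.26 over 85 genes in Prog and -0.09 over 82 in Int. NK cells of P-HC24 had the lowest median depth of the 4 libraries. In cells thinned to 2000 UMIs the oxidative phosphorylation median in Prog stayed within the limits set for it. Thinning draws the UMIs of a cell at random and keeps its expected composition, so it cannot show the part of depth. The part of depth in the oxidative phosphorylation and ribosomal medians was not tested.

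The MHC class I presentation list had medians above 0 at both weeks, 0.23 over 20 genes in Prog and 0.27 over 18 in Int. Of its members 11 were above and 9 below 0 in Prog, where 2 were at least 1.5-fold lower, beside 15.6% of all compared genes. In Int 14 were above 0 and 4 below. H2-K1 had 2307, 2671, 2522 and 3264 CPM and log2 ratios of 0.21 (0.11 to 0.31) and 0.37 (0.26 to 0.48), and H2-D1 had ratios of 0.43 (0.33 to 0.53) and 0.29 (0.17 to 0.41). None of the list was 1.5-fold higher in either comparison, beside 4.56% of all compared genes in Prog and 5.71% in Int. Nlrc5, the transactivator of class I genes, was lower in Prog, at -1.45 (-2.22 to -0.76). Class I genes share sequence, and reads may be split among them.

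Heat shock genes had medians of -0.15 over 8 genes in Prog and 0.48 over 7 in Int. In Int 2 were higher, beside 5.71% of all compared genes. Hspa5 (BiP), a chaperone of the endoplasmic reticulum, had 298, 280, 277 and 527 CPM and a log2 ratio of 0.93 (0.63 to 1.22) in Int, and Hsp90ab1 had 1009, 857, 995 and 1638 CPM and 0.72 (0.56 to 0.88). In T cells Hsp90ab1 had 1134, 1045, 1055 and 1765 CPM, also highest in I-HC32. Type I interferon-stimulated genes had medians of -0.44 over 7 genes and -0.08 over 6, and immediate early genes 0.16 over 12 and 0.08 over 11.

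Genes that respond to cholesterol could hardly be read. No gene of sterol synthesis and uptake had enough UMIs in either comparison. Of the targets of the liver X receptor, which senses oxysterols, 3 were compared in Prog and 2 in Int and none passed 1.5-fold. Abcg1, a cholesterol exporter gene, had 73.1, 73.3, 95.7 and 67.5 CPM. Cell cycle genes were also sparse, and Mki67 had a UMI in 2.68%, 1.2%, 5.88% and 3.77% of NK cells.

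**Figure D5:**
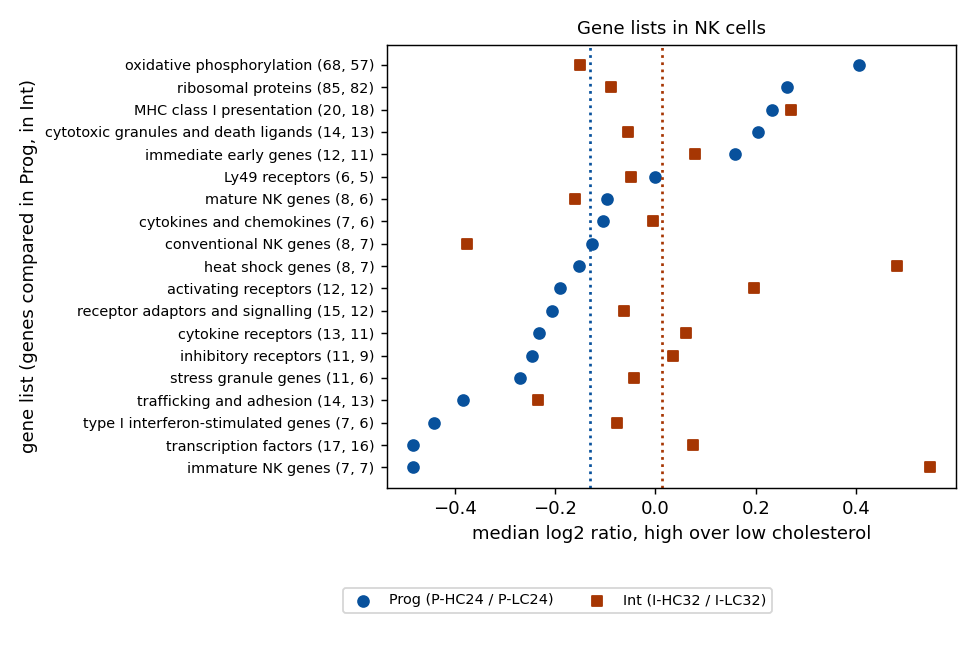
Median log2 ratio of high over low cholesterol in NK cells for 19 gene lists, at week 24 (circles) and week 32 (squares), with the number of compared genes in brackets. Dotted lines are the medians of all compared genes, -0.13 and 0.01, and the week 24 values run from -0.48 for transcription factors and immature NK genes to 0.41 for oxidative phosphorylation.

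Between the weeks, the high cholesterol cohort differed in more genes by share than the low cholesterol cohort. From P-HC24 to I-HC32, 204 (15.5%) of 1319 compared genes were higher and 114 (8.64%) lower, 24.1% in all, and from P-LC24 to I-LC32, 146 (3.68%) of 3967 were higher and 249 (6.28%) lower, 9.96% in all. The former pair had the fewer UMIs, and its ratios are the less precise. Inpp4b had a log2 ratio of week 32 over week 24 of 4.72 (3.98 to 5.58) in the high cholesterol cohort and -0.35 (-0.60 to -0.10) in the low cholesterol cohort, and Tox 2.77 (2.42 to 3.14) and -0.40 (-0.57 to -0.24). Gzma had -0.82 (-0.91 to -0.74) and -0.22 (-0.27 to -0.17), and Klra8 -0.77 (-1.03 to -0.51) and -0.56 (-0.71 to -0.40).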

How the data were processed

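RNA was measured with the 10x Genomics 3′ v3.1 chemistry in 4 libraries of liver cells freed from biopsies by 15 min of collagenase digestion. The authors deposited raw UMI counts for 33696 genes per barcode, made with Cell Ranger 9.0.1 on GRCm39, and the submitters' processing notes also name Seurat 5.3. The deposited libraries held 7035 to 9828 barcodes and 50941106 to 89257239 UMIs. Members and gene lists were chosen with earlier results of these data known. From these counts, UMIs were summed over the NK cells of a library and scaled to CPM. Log2 ratios carry exact conditional Poisson intervals, shares exact Clopper-Pearson intervals and differences of shares Newcombe-type intervals built on the exact limits, all at 95% and for counting error only. A count of 0 was set to 3 counts. With 1 library per condition no test was made.

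Named genes are the 10 with the highest and the 10 with the lowest ratio among compared genes whose CPM, in the library where they were higher, was at least 20% of that in other cells. Left out were genes of immunoglobulins and T cell receptors, of haemoglobin and of mitochondria, and members of the gene lists could be named too. Some genes taken by this rule or held in the lists are not reported here. No doublet caller was used beside the lineage exclusion. Scrublet, in scanpy 1.11.5, was tried as an alternative. The scripts ran in Python 3.11.15 with pandas 2.3.3, scipy 1.17.1, matplotlib 3.10.9 and numpy 2.4.6, and the ratio and interval code was tested on simulated data. Promoter sequences came from RefSeq (GRCm38.p6), where all 5 marker genes matched by symbol.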

Additional observations from a re-analysis of the deposited data

Results flagged for a closer look

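High over low cholesterol had opposite directions at the 2 weeks, past 1.5-fold in single libraries, for several of the named genes, and with 1 library per condition none of these differences was tested. The log2 ratio in Prog and then in Int was -5.04 and 1.90 for Dscam, -3.07 and 2.00 for Inpp4b, -1.89 and 1.28 for Tox, and -2.12 and 0.64 for St6galnac3. It was -0.78 and 1.19 for P2ry10, a lysophospholipid receptor gene, and -0.67 and 1.18 for Antxr2. Rbm3 had the reverse order, 0.83 and -0.93. The share of NK cells with ILC1 genes differed by -11.0 percentage points in Prog and by 11.5 in Int, and this difference was not tested either. Outside the barcodes used, 11 barcodes met the NK rule but were above the mitochondrial limit, 5, 3, 2 and 1 of them in the order of the libraries, against the 3 that a count of 0 allows.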

How the results depend on the processing

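With 1 library per condition no replicate could be left out. No paired analysis was possible because each comparison has a single library per group. Of the alternative values, 81 shares and counts, 519 list medians and 3616 gene ratios stayed within the limits set for them, while 31, 4 and 146 moved and 2 gene ratios reversed. Those that reversed were Gpx1 in Int, 0.14 with 1 marker UMI, and Xcl1 in Prog, 0.48 without the cells with ILC1 genes. The difference in NK share was -2.25 percentage points in Int with a mitochondrial limit of 5%, and -12.5 in Prog and -4.17 in Int over NK and T cells. Excluding any UMI of Cd3g, Trac, Trbc1, Trbc2, Cd79b or Ms4a1 gave -0.361 and -0.121, 17 genes higher and 25 lower in Prog, 7 and 20 in Int, and a transcription factor median of -0.034 in Prog. Most NK cells carry Trbc1, and this setting left 26, 10, 13 and 4 NK cells. Median-of-ratios scaling gave 324 genes higher in Prog and an oxidative phosphorylation median of 0.54. Genes higher and lower were 597 and 1271 in Prog and 903 and 724 in Int from 20 UMIs on, 69 and 264 in Prog and 30 and 24 in Int from 200 UMIs on, 14 and 124 in Prog and 18 and 10 in Int at 2-fold, and 715 and 1335 in Prog and 497 and 402 in Int at 1.2-fold. Cells thinned to 2000 UMIs gave 68 and 175 in Prog and 23 and 37 in Int, with an activating receptor median of 0.053 in Int. Without the cells with ILC1 genes 79 genes were higher in Int, and the conventional NK median in Int was -0.15. These thinned and ILC1 settings were chosen after seeing the data, as were leaving out Il7r and leaving out barcodes of macrophage or haemoglobin RNA. Depth limits I-HC32 most, where 53 cells held 311289 UMIs.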
